A study of Homo sapiens with 3 samples.

Results

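The genes described here encode the proteasome, its activators, its inhibitor and its assembly factors, and were followed as RNA targets of MATR3 in HEK293 cells. Members were all deposited read clusters whose gene name begins with PSMA, PSMB, PSMC, PSMD, PSME, PSMF or PSMG directly followed by a digit, leaving out names ending in AS or in P plus digits. The rule took 41 of the 13557 gene names in the deposited tables. These genes held 360 of 133088 clusters in replicate 1, 372 of 131679 in replicate 2 and 386 of 124040 in replicate 3. One of the names, PSMC3IP, belongs to a meiotic recombination factor and not to a proteasome subunit.

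The data came from PAR-CLIP with an antibody against MATR3 (matrin 3, a nuclear RNA-binding protein) in 3 biological replicates of HEK293, an established human embryonic kidney line. In PAR-CLIP, cells take up a photoreactive nucleoside, RNA is crosslinked to the protein by light, and the crosslinked uridines are read as T-to-C changes. All 3 libraries were wild type, carried no treatment by the labels, and formed a single group with no control library and no MATR3-deficient library. Clusters show where MATR3 was crosslinked and carry no separate measure of how much of each transcript was present, so a gene with more RNA and a gene bound more often per RNA cannot be told apart, and the labelled cell type could not be checked against marker genes.

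The proteasome is the protease that degrades ubiquitin-tagged proteins in the cytoplasm and the nucleus. Its barrel-shaped 20S core is built from alpha subunits, which gate the entrance, and beta subunits, some of which carry the protease sites. The 19S regulatory particle binds the tagged protein, removes the ubiquitin and unfolds it, with a ring of ATPases and a lid and base of non-ATPase subunits. Activators (PSME genes) can bind the core in place of the 19S particle, and chaperones (PSMG genes) guide the assembly of the core. The subunit genes are known to be expressed in nearly all cells, except some tissue-restricted or interferon-induced core subunits.

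The sequences below are places in these genes where MATR3 clusters of independent libraries fell on the same nucleotides. They are shown for that overlap, and not every well-supported site is among them. In all, 9 sites had at least 10 reads in every replicate and at least 20 nt shared by the clusters of all 3 replicates, and 7 of them are shown. The last sequence is the overlapping pair of clusters with the most reads. Sequences read 5′ to 3′ on the strand of the gene. Capitals mark the stretch shared by the clusters of the replicates, and the 3′ UTR site is limited to 30 nt inside that stretch.
PSMB7 intron 6: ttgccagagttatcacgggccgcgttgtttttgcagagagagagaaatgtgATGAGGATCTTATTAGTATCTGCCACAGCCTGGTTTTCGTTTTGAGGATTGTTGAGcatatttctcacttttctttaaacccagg
PSMD14 intron 10: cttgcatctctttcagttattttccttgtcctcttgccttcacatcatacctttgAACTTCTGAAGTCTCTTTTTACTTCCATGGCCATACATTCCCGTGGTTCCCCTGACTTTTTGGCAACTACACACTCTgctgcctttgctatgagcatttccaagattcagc
PSMG2 intron 3: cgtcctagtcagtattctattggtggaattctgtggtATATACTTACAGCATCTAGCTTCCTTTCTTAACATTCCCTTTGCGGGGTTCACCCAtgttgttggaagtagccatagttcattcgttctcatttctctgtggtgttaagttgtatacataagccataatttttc
PSMD13 intron 2: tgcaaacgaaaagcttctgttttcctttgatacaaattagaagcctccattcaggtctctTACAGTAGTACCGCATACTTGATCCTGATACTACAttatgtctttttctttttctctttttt
PSMD6 intron 5, first site: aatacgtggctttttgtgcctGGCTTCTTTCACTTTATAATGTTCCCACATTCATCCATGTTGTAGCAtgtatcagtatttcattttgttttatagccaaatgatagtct
PSMD6 intron 5, second site: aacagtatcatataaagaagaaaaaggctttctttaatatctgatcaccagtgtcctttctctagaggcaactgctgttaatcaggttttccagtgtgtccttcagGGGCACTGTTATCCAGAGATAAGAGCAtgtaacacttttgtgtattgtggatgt
PSMA4 3′ UTR: TAGAGAAAGTACTGGGTTAGGGTCCTACAA
PSMD3 intron 6, replicates 1 and 2: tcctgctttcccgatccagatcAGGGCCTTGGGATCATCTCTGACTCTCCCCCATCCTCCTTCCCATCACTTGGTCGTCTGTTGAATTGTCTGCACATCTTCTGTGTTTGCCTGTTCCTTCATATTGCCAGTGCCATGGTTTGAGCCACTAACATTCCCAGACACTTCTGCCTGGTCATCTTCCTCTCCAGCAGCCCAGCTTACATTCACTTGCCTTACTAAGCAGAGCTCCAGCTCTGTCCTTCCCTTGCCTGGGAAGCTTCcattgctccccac
In hg38, the site in PSMB7 lay at chr9:124364547-124364682 on the minus strand. The site in PSMD14 lay at chr2:161404707-161404872, that in PSMG2 at chr18:12715963-12716133 and that in PSMD13 at chr11:242687-242808, all on the plus strand. The first site in PSMD6 lay at chr3:64016955-64017064 and the second at chr3:64015666-64015825, both on the minus strand. The 3′ UTR site in PSMA4 lay at chr15:78550164-78550193 in exon 9 on the plus strand. The PSMD3 pair lay at chr17:39993500-39993775 on the plus strand. Intron and exon numbers are those of the GENCODE v44 canonical transcript. The deposited sequences of all 1118 clusters of these genes were identical to hg38 at their coordinates.

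The printed places varied in base composition. Pyrimidines made up between 36.7% and 69.3% of the printed bases, lowest at the PSMA4 3′ UTR site and highest at the PSMD14 site. The motif ATCTT, the DNA form of the AUCUU element known for MATR3, occurred in 1 of these 9 sites, the PSMB7 site, where it lay inside the shared stretch, and 2 times in the PSMD3 pair. The motif was searched on the strand of the gene. Intron sites were searched over their full span, but the PSMA4 and PSMD9 3′ UTR sites over 30 nt only. The share of other genes' intron clusters that hold the motif is given with the comparisons. One of the 9 sites, in intron 1 of PSMB1 and not shown, differed from the others in its number of genomic copies. Its most repeated 20-mer in the shared stretch occurred 1673 times in the main chromosomes of hg38 on either strand, against 1, 2, 4 or 10 times at the other 9 places. How the reads of this site were assigned among copies is not given in the sources used here, and its part in the PSMB1 values was not tested.

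MATR3 clusters were found on most proteasome genes. GENCODE v44 holds 49 protein-coding genes under the name rule, of which 34 (69.4%) had a cluster in all 3 replicates, 5 in 2 replicates, 2 in 1 replicate and 8 in none. Over all 20020 protein-coding genes, 40.7% had a cluster in all 3 replicates, and over the 16569 genes between the shortest and the longest of these 49 in length, 40.8% did. The share with no cluster in any replicate was 16.3% of the proteasome genes and 44.2% of protein-coding genes. The proteasome share was thus above the background of protein-coding genes. Of the 1414 gene names that matched no annotated gene, 437 had a cluster in all 3 replicates, and the protein-coding share would be 42.9% if all of these were protein-coding. Expression was not corrected for, its part in this was not tested, and no p-value is attached to the count. The 34 genes fell to 27 when clusters needed at least 3 distinct reads and to 26 with at least 10 reads.

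The genes without a cluster in any replicate included the 3 interferon-induced core subunits PSMB8, PSMB9 and PSMB10 and the testis form of an alpha subunit, PSMA8. The others were the ATPases PSMC3 and PSMC5, the base assembly factor PSMD5 and the activator subunit PSME1. A gene without a listed cluster had no site above the limits of the tables, in which no cluster of any gene had fewer than 4 reads, 2 conversion positions or 20 nt. PSMB4 and PSMC4 had clusters in replicate 1 only. PSMB11, the thymus form of a catalytic subunit, had 1 cluster of 5 reads in replicate 1 and 1 of 5 reads in replicate 3. PSMD2, the largest base subunit beside PSMD1, had clusters in replicates 1 and 2, and PSMD10, PSME2 and PSMG3 had them in replicates 2 and 3.

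Levels are given as rpm, the reads in a gene's clusters for every 1000000 reads in the gene-annotated clusters of that replicate. The proteasome genes together held 3755 rpm in replicate 1, 3893 in replicate 2 and 4221 in replicate 3, a mean of 3956 ± 239 (SD, n = 3), from 5439, 5170 and 5736 reads. They made up 0.313%, 0.324% and 0.356% of gene clusters and 0.341%, 0.340% and 0.346% of the genes with a cluster. As a set they therefore held about as large a share of the clusters as of the genes. Reads were spread unevenly over members: the 5 genes with the most reads held 42.6%, 42.9% and 38.1% of the reads in the 3 replicates. Among the 34 genes found in every replicate the highest mean, 385 rpm for PSMB7, was 49.0 times the lowest, 7.87 rpm for PSMD7. The order of the genes was similar between libraries, with Spearman's rho across the 49 genes of 0.894 between replicates 1 and 2, 0.895 between replicates 1 and 3, and 0.919 between replicates 2 and 3. Across the 41 genes with a cluster, leaving out those at 0 in every replicate, the values were 0.869, 0.864 and 0.873. These correlations run across genes, which share gene length as a source of their order and are not independent replicates.

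**Figure D1:**
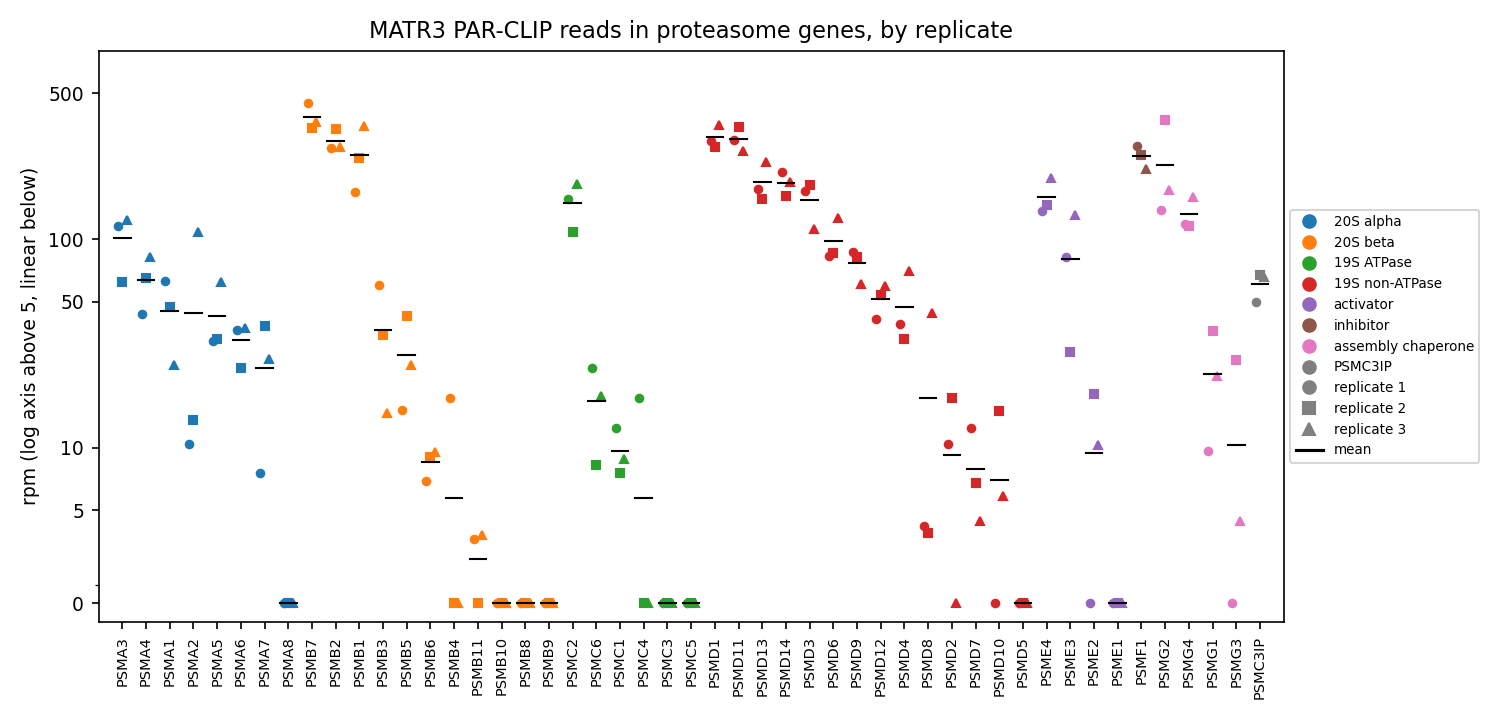
Level (rpm, the reads for every 1000000 reads in gene clusters) in each of the 49 genes of the name rule, by replicate (circle, square and triangle for replicates 1, 2 and 3), coloured by role, with the mean as a bar; the vertical axis is logarithmic above 5 and linear below. PSMB7 has the highest mean, 385 rpm, and 8 genes lie at 0 in all 3 replicates.

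Among the 8 alpha-subunit genes of the 20S core, 7 had clusters in all 3 replicates, and the group held 309, 284 and 465 rpm, a mean of 353 ± 98.1 (SD, n = 3). PSMA3 was the highest of them, with 116, 62.5 and 124 rpm. PSMA4 had 43.5, 64.8 and 81.7 rpm. PSMA8 had no cluster, and the remaining alpha genes had means from 24.2 rpm (PSMA7) to 45.1 rpm (PSMA1). Most reads of PSMA1 lay outside its GENCODE v44 canonical transcript. Inside that transcript it had 5, 13 and 9 reads, a mean of 6.62 rpm. PSMA2 stood out for its spread, with 10.4, 13.6 and 108 rpm. In replicate 3 a single intron cluster of PSMA2 held 78 of its 147 reads. Without the leading cluster of each replicate PSMA2 had 4.14, 7.53 and 50.8 rpm, so replicate 3 remained the highest.

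The 11 beta-subunit genes held 995, 1008 and 1043 rpm, a mean of 1015 ± 24.7 (SD, n = 3), the second highest of the 7 role groups. Nearly all of it came from 3 genes, PSMB7, PSMB2 and PSMB1. PSMB7, the subunit with the trypsin-like protease site, had 450.2, 342 and 364 rpm from 34, 38 and 35 clusters. PSMB2, a structural beta subunit, had 273, 336 and 275 rpm from 25, 32 and 21 clusters. PSMB1, also structural, had 168, 244 and 350.3 rpm from 14, 14 and 25 clusters, with replicate 3 the highest. PSMB7 lay above PSMB2 and PSMB1 in each replicate, by little over PSMB2 in replicate 2 and over PSMB1 in replicate 3. PSMB1 lay below PSMB2 in replicates 1 and 2 and above it in replicate 3. Across replicates the range of PSMB1 overlapped those of both other genes. The other 2 constitutive protease subunits were far lower: PSMB5 had 15.2, 42.9 and 25.02 rpm, and PSMB6 had 6.90, 9.04 and 9.57 rpm. PSMB3 had 60.1, 34.6 and 14.7 rpm.

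The ATPase ring of the 19S particle had the lowest level among the multi-gene groups, with 210, 123 and 211 rpm over 6 genes, a mean of 182 ± 50.3 (SD, n = 3). PSMC2 accounted for most of it, with 156, 108 and 185 rpm. PSMC1 and PSMC6 had means of 9.60 ± 2.54 and 16.7 ± 7.99 rpm (SD, n = 3), and PSMC3 and PSMC5 had no cluster. The ATPases are known to form a ring with a single copy of each, and the MATR3 levels of their genes lay far apart.

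The 14 non-ATPase genes held 1426, 1418 and 1523 rpm, a mean of 1456 ± 58.5 (SD, n = 3), the highest of the role groups, and 11 of them had clusters in all 3 replicates. PSMD1, the large base subunit that scaffolds ubiquitin receptors, had 297, 276 and 354 rpm. PSMD11, a lid subunit, had 298, 345 and 266 rpm. These 2 genes did not differ beyond the spread of their replicates. PSMD13, a lid subunit, had 173, 156 and 233 rpm, and PSMD14, the deubiquitinase of the lid, had 211, 160.4 and 188 rpm. Their ranges overlapped as well. PSMD3, another lid subunit, had 170, 182 and 112 rpm. PSMD6 had 82.9, 85.8 and 126 rpm. PSMD9, a chaperone of base assembly, had 87.0, 82.1 and 61.1 rpm. Of the remaining genes found in every replicate, PSMD12 had a mean of 51.7 ± 9.34, the ubiquitin receptor PSMD4 one of 47.5 ± 19.7 and PSMD7 one of 7.87 ± 4.12 rpm (SD, n = 3). PSMD8 had 4.14, 3.76 and 44.2 rpm, with replicate 3 far above the others.

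Among the activators, PSME4, which caps the core in the nucleus, had 137, 145 and 197 rpm. PSME3, the nuclear activator that binds without ubiquitin, had 82.2, 28.6 and 130.2 rpm, with the lowest value in replicate 2. A single 3′ UTR cluster held 66 of its 119 reads in replicate 1 and 93 of its 177 reads in replicate 3, and no 3′ UTR cluster of the gene was listed in replicate 2. PSMF1, the proteasome inhibitor, had 280.3, 252 and 218 rpm from 33, 32 and 29 clusters. Its relative spread was among the lowest of the members, with 250.1 ± 31.3 (SD, n = 3).

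Of the 4 chaperones that pair up to assemble the core, PSMG2 was the highest, with 137, 370.5 and 171 rpm. One intron cluster of replicate 2 held 253 of its 492 reads, the most reads of any cluster in these genes. Without the leading cluster of each replicate the values were 114, 180.0 and 135 rpm, so the mean of 226 ± 126 (SD, n = 3) rested in part on that cluster. PSMG4 had 119, 115 and 160 rpm, and PSMG1 had 9.67, 36.1 and 22.1 rpm. PSMC3IP, which shares the name pattern but not the function, had 49.7, 67.0 and 65.5 rpm, and all of its 11 clusters were in introns.

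Longer proteasome genes had more clusters. The rank correlation of gene length with mean cluster number was 0.716 across the 49 genes and 0.393 across all protein-coding genes, given as a description since genes are not replicates. Of the 17 members shorter than 10 kb, 6 had clusters in all 3 replicates (35.3%), against 15.8% of protein-coding genes of that length. From 10 to 20 kb it was 11 of 13 (84.6%, against 35.2%), and from 20 to 50 kb 9 of 10 (against 49.8%). From 50 to 100 kb it was 4 of 5 (against 55.1%), and above 100 kb 4 of 4 (against 56.4%). PSMA1 was in the last class by its full span of 139 kb, where its canonical transcript spans 15.5 kb. The members lay above the protein-coding share in each of the 5 length classes, and the longest gene without any cluster was PSMA8.

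Per length the order of the genes changed. PSMB1 was the densest, with 14.0 ± 5.02 rpm per kb (SD, n = 3) over its 18.2 kb gene, followed by PSMD13 with 11.7 ± 2.53 over 16.02 kb. Then came PSMC3IP with 11 ± 1.73, PSMD3 with 9.02 ± 2.19, PSMD11 with 7.78 ± 1.02 and PSMD6 with 7.29 ± 1.78 rpm per kb. The spreads of neighbours in this order overlapped. PSMB7, first by level, had 6.22 ± 0.923 rpm per kb, and PSMD1, at 116 kb, had 2.66 ± 0.346. With reads and length both taken from inside the canonical transcript, PSMB1 and PSMD13 again came first. PSMG4 ranked 4 with 9.95 ± 6.10 rpm per kb (SD, n = 3) over 9.10 kb, where its full gene span is 72.0 kb. PSMG2 ranked 5 with 9.90 ± 5.41 rpm per kb (SD, n = 3) over 22.7 kb. Over its full span of 70.9 kb, PSMG2 had 3.19 ± 1.78 rpm per kb (SD, n = 3). The median over the 49 genes was 2.25 rpm per kb, against 0.0640 over all protein-coding genes, whose upper quartile was 1.18. Of the 49 genes, 41 lay above that median and 33 above that upper quartile. The median includes the 44.2% of protein-coding genes with no cluster, at 0. Those 41 are the members with a cluster in any replicate, so that count restates presence and is no separate result on density.

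**Figure D2:**
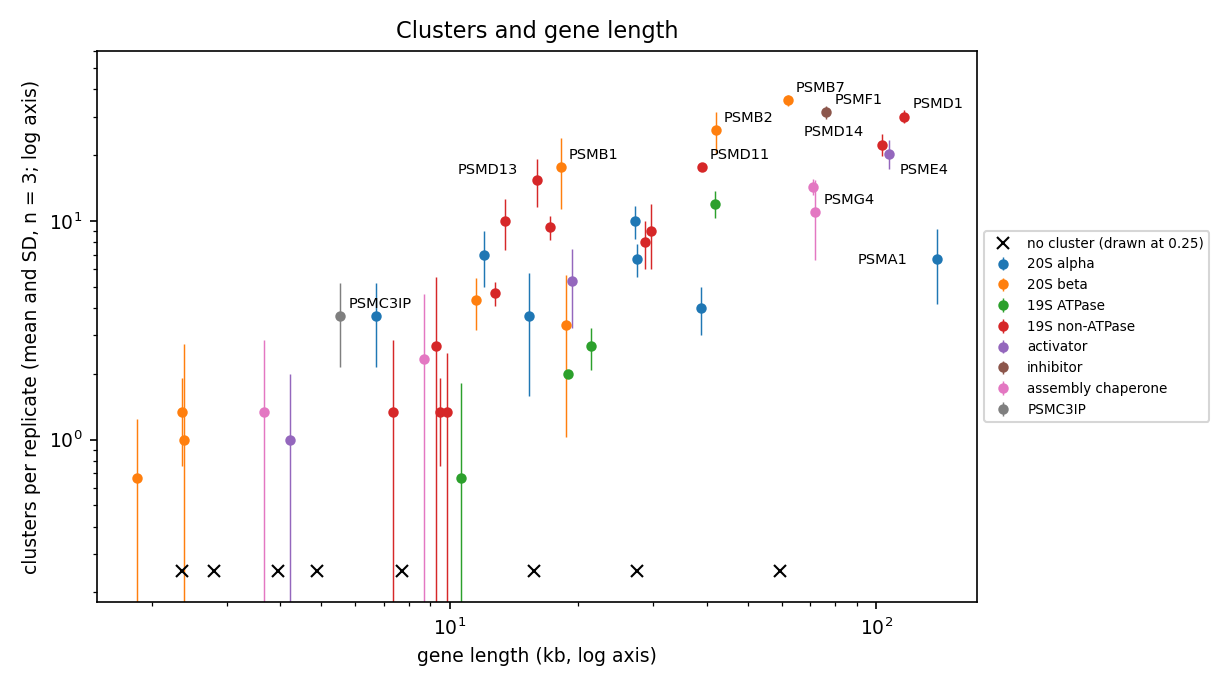
Clusters per replicate (mean and SD, n = 3) against the length of the gene in kb, both on log axes, for the 49 genes; crosses are the 8 genes without a cluster, drawn at 0.25, and SD bars that reach the lower edge extend below the axis. Cluster number rises with length, and PSMB1 and PSMD13 lie above genes of like length.

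Most clusters on proteasome genes lay in introns. Of 1118 clusters, 955 carried the authors' intron class, 89 the 3′ UTR class, 13 the coding class and 4 the 5′ UTR class, and the rest lay across boundaries or in transcripts of other kinds. The intron class made up 84.2%, 86.6% and 85.5% of the members' clusters and 83.9%, 83.3% and 83.1% of the clusters of all other genes. The difference of 1.94 ± 1.55 percentage points (SD, n = 3) was positive in 3 of 3 replicates, with an exact two-sided sign-flip permutation p of 0.25, the smallest that 3 replicates allow. Against other protein-coding genes alone the difference was -2.02 percentage points, so its direction depended on the comparison set. The 36 genes with an intron cluster left 5 with clusters of other classes only: PSMB4, PSMB11, PSMC4, PSMD2 and PSME2.

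Clusters in 3′ UTRs made up 8.61%, 7.26% and 8.03% of the members' clusters and 5.61%, 5.57% and 6.31% of those of other genes. The share was higher in 3 of 3 replicates, by 2.14 ± 0.748 percentage points (SD, n = 3; exact two-sided sign-flip permutation p = 0.25). They came from 17 genes, and 59 of the 89 came from 5: PSMA4 (14 of its 21 clusters), PSMB2 (14 of 78), PSMG4 (12 of 33), PSMD11 (10 of 53) and PSMD9 (9 of 27). By the canonical transcripts of GENCODE v44, 75 of the 89 lay in a 3′ UTR and 13 in an intron, 10 of these in PSMG4. Without PSMG4 the difference was 1.27 percentage points. PSMA4 was the one among these whose clusters lay mostly in the 3′ UTR, with 63 of 63, 40 of 86 and 100 of 111 reads there. PSMD11 had 194 of 432, 191 of 458 and 140 of 361 reads in its 3′ UTR. Members had 19.9 ± 0.994 reads per 3′ UTR cluster and 14.3 ± 0.636 per intron cluster, where other genes had 14.7 ± 0.809 and 11.8 ± 0.581 (SD, n = 3).

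Within the genes, clusters gathered in some introns beyond the share of intron sequence these hold. PSMC2 had 27 of 36 intron clusters (75%) in intron 1, which holds 32.2% of its intron sequence. PSMD6 had 78.6% in intron 5, which holds 43.1%. PSMA3 had 56.7% in intron 1, which holds 10.7%, and PSMF1 had 43.7% in intron 1, which holds 14.5%. In PSMF1 the longest intron, intron 4, holds 61.2% of the sequence and had 22.5% of the clusters. PSMG2 had 60.5% in intron 3 (26.6% of the sequence), PSMD3 60.7% in intron 6 (31.7%) and PSMD13 56.8% in intron 2 (34.4%). PSME4 had 34.4% in intron 3, which holds 8.45%.

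In the longest introns of PSMD1, PSMD14, PSMB7 and PSMB2, cluster share lay closer to sequence share than in intron 4 of PSMF1. Some shorter introns of these genes held more than their sequence share. PSMD1 had 15.6% of its clusters in intron 1 (3.75% of the sequence), PSMB2 23.3% in intron 4 (10.6%) and PSMD14 22.4% in intron 10 (13.4%). PSMD1 had 20, 20 and 15 clusters in intron 16, or 61.1% of its clusters in 45.8% of its intron sequence. PSMD14 had 12, 12 and 16 in intron 3, or 59.7% in 47.8%. PSMB7 had 17, 20 and 16 in intron 6 (49.5% in 45.4%) and 15, 11 and 15 in intron 5 (38.3% in 33.9%). PSMB2 had 53.3% in intron 3, which holds 58.2%. These shares pool the 3 replicates and are descriptions without a test. They count every cluster whose midpoint lies in the intron.

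**Figure D3:**
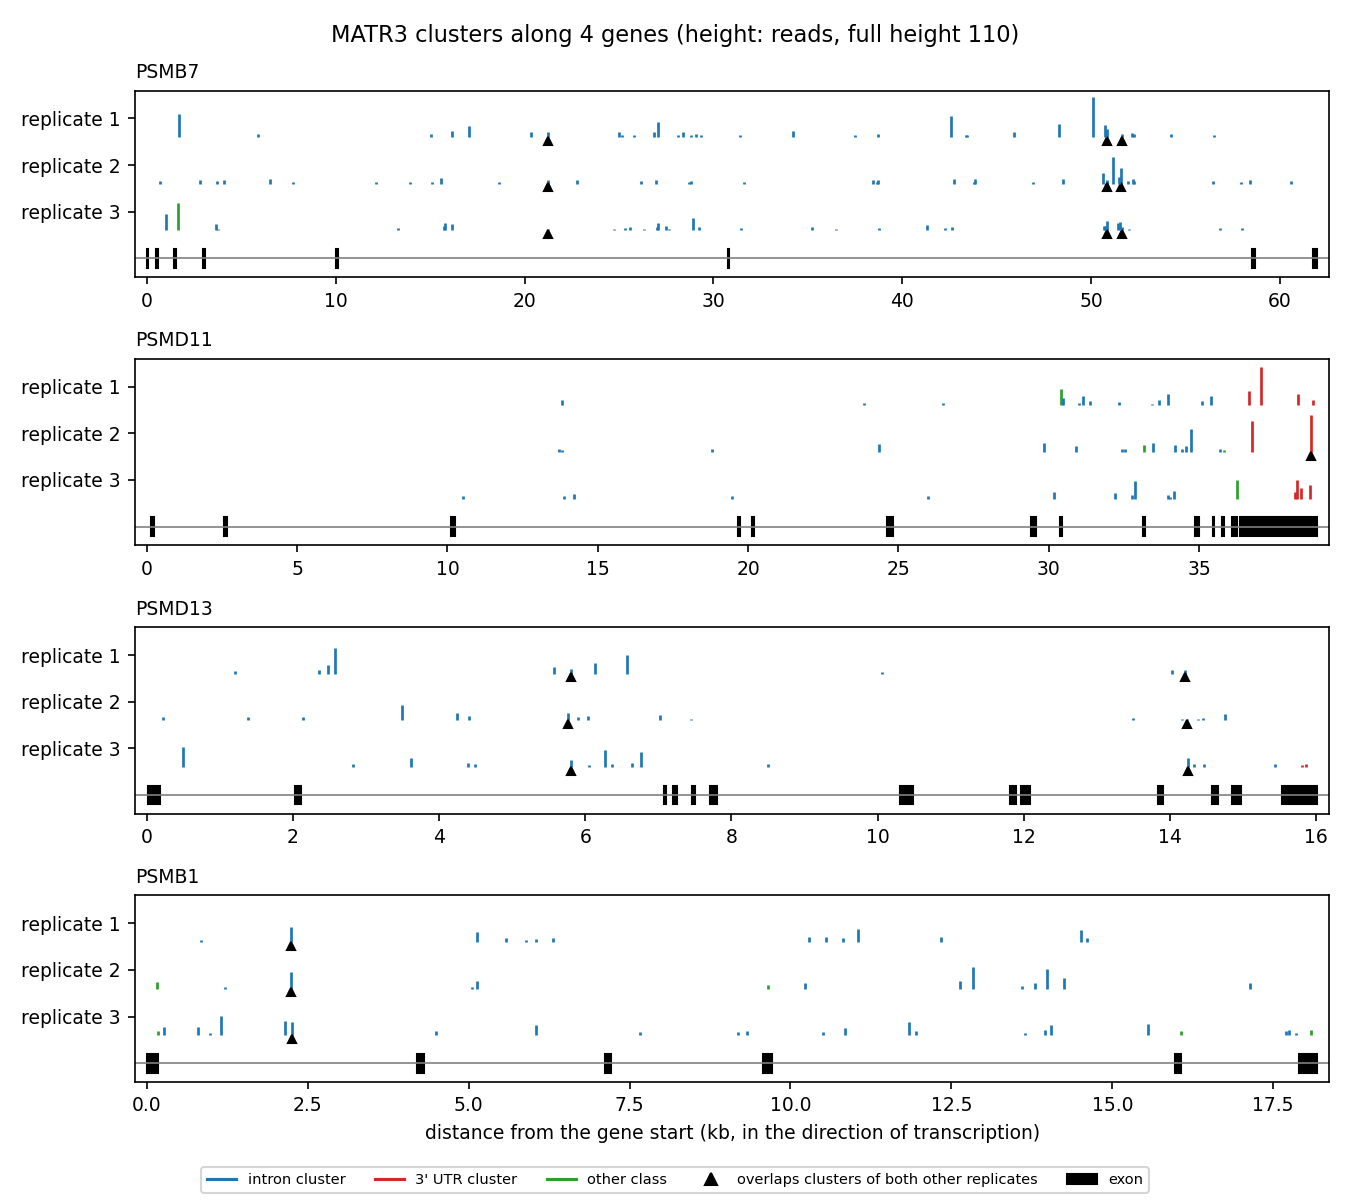
Clusters of each replicate along PSMB7, PSMD11, PSMD13 and PSMB1, drawn from the gene start in the direction of transcription (kb), with line height for reads (full height 110), colour for annotation class and exons in black; triangles mark clusters that overlap clusters of both other replicates. PSMD11 shows its 3′ UTR clusters at the right end, and PSMB7 shows intron clusters along its length.

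Clusters were called separately in each library, so a cluster was counted as recurrent where it shared 1 nt or more with a same-strand cluster of another library. This held for 25.3%, 23.7% and 25.1% of the members' clusters and 21.5%, 21.2% and 22.5% of those of other genes. Members were higher in 3 of 3 replicates, by 2.95 ± 0.716 percentage points (SD, n = 3; exact two-sided sign-flip permutation p = 0.25). The difference was 1.04 percentage points among clusters with at least 3 distinct reads and 0.980 where the overlap had to cover at least 50% of both clusters. The members' clusters were also longer, with a median of 40.3 ± 1.15 nt against 38.7 ± 1.53, and had more reads, with 14.6 ± 0.639 per cluster against 12.2 ± 0.569 (SD, n = 3); the part of length and reads in recurrence was not tested. Clusters that overlapped both other replicates made up 4.39% of the members' clusters and 2.53% of those of other genes. Thus about 3 in 4 clusters on a proteasome gene were seen in a single library even where the gene itself was found in all 3.

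By class, 23.7% ± 1.25 of the members' intron clusters recurred, against 21.5% ± 0.740 in other genes (SD, n = 3). In the 3′ UTR the share was 51.6%, 33.3% and 25.8% of 31, 27 and 31 clusters, against 24.3%, 23.7% and 23.6%. The excess was largest in replicate 1 and small in replicate 3. In all, 28 of the 41 genes had a cluster found in another replicate. The same count over other genes was not made, so it does not set these genes apart.

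In 15 places of 10 genes, clusters of all 3 replicates shared at least 1 nt. The shared stretch ran from 1 to 77 nt with a median of 34. PSMB7 had 3 such sites, PSMA3, PSMD6 and PSMD13 had 2 each, and PSMA4, PSMB1, PSMD9, PSMD14, PSMF1 and PSMG2 had 1 each. All 3 clusters carried the intron class at 12 of them and the 3′ UTR class at 2, in PSMA4 and PSMD9. The PSMF1 site in intron 6 had 1 cluster of a mixed coding and intron class.

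The strongest sites by their lowest replicate were those of PSMB1 and PSMD14. The PSMB1 site had 41, 45 and 36 reads, the steadiest of the high values, and the PSMD14 site had 50, 48 and 30. The PSMB1 site is also the one whose sequence has many genomic copies. The PSMG2 site in intron 3 had 12, 76 and 49 reads and the PSMD9 3′ UTR site 49, 13 and 28, so replicates differed severalfold at these. The printed PSMB7 site had 23, 11 and 25 reads, the PSMD13 site 14, 19 and 20, and the PSMA4 site 15, 10 and 15. The PSMD6 sites had 16, 19 and 15 reads (first) and 20, 40 and 14 (second). Of the sites with fewer reads or a shorter shared stretch, the other PSMB7 sites had 8, 43 and 8 reads, sharing 1 nt, and 15, 10 and 5 reads. The PSMA3 sites had 17, 6 and 18 and 16, 5 and 11 reads, the second PSMD13 site 10, 5 and 24, and the PSMF1 site 33, 21 and 7. None of the intron sites printed lay within 1000 nt of an exon of the canonical transcript. Among the sites not printed, the PSMF1 site lay 124 nt past an exon. The second PSMD13 site lay 332 nt past an exon and 348 nt before the next, and the first PSMA3 site 232 nt before one.

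The pair of clusters with the most reads in common was the PSMD3 pair, with 106 reads in replicate 1 and 133 in replicate 2 and 241 nt in common. Replicate 3 had no cluster there. The next pairs were a PSME3 3′ UTR place with 66 and 93 reads in replicates 1 and 3, and a PSMB7 intron 3 place with 64 and 77 reads in the same replicates. At the PSMG2, PSMD14 and PSMB1 sites, the next pairs by reads, the other library had a cluster too.

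Crosslink conversion is read from the T-to-C changes themselves. Conversion events made up 9.77%, 10.9% and 10.8% of T positions read in the members' clusters and 10.5%, 11.2% and 11.2% in those of other genes. The members were lower in 3 of 3 replicates, with a mean difference of -0.479 ± 0.277 percentage points (SD, n = 3; exact two-sided sign-flip permutation p = 0.25). The difference shrank to -0.189 once clusters needed 3 distinct reads, and to -0.245 once they needed 10 reads. By class, conversion per T was 10.4% ± 0.697 in members against 10.9% ± 0.375 for intron clusters, 10.9% ± 0.654 against 10.4% ± 0.351 for 3′ UTR clusters and 11.8% ± 1.31 against 11.6% ± 0.287 for other classes (SD, n = 3). The members' mean was thus lower for intron clusters only. The share of reads with a T-to-C change was 84.2% in members and 86.1% in other genes. The lower read share was seen for intron clusters, with 85.05% ± 0.289 against 87.5% ± 0.625, while in 3′ UTR clusters it was 77.4% ± 2.17 against 78.3% ± 0.751 (SD, n = 3), a gap within the spread of the members. In the other classes the members were higher in 3 of 3 replicates, with 84.4% ± 3.94 against 81.6% ± 1.51 (SD, n = 3).

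The motif ATCTT did not separate proteasome introns from others. It occurred in 12.2%, 8.07% and 10.6% of the members' intron clusters and in 10.1%, 9.40% and 9.57% of those of other genes. The difference of 0.612 ± 1.76 percentage points (SD, n = 3) was positive in 2 of 3 replicates, with an exact two-sided sign-flip permutation p of 0.75. It was -0.143 without replicate 1, and -0.0463 when occurrences per 1000 nt were counted. Pyrimidines made up 57.7% ± 2.15 of the bases of the members' intron clusters and 57.5% ± 0.850 in other genes (SD, n = 3).

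**Figure D4:**
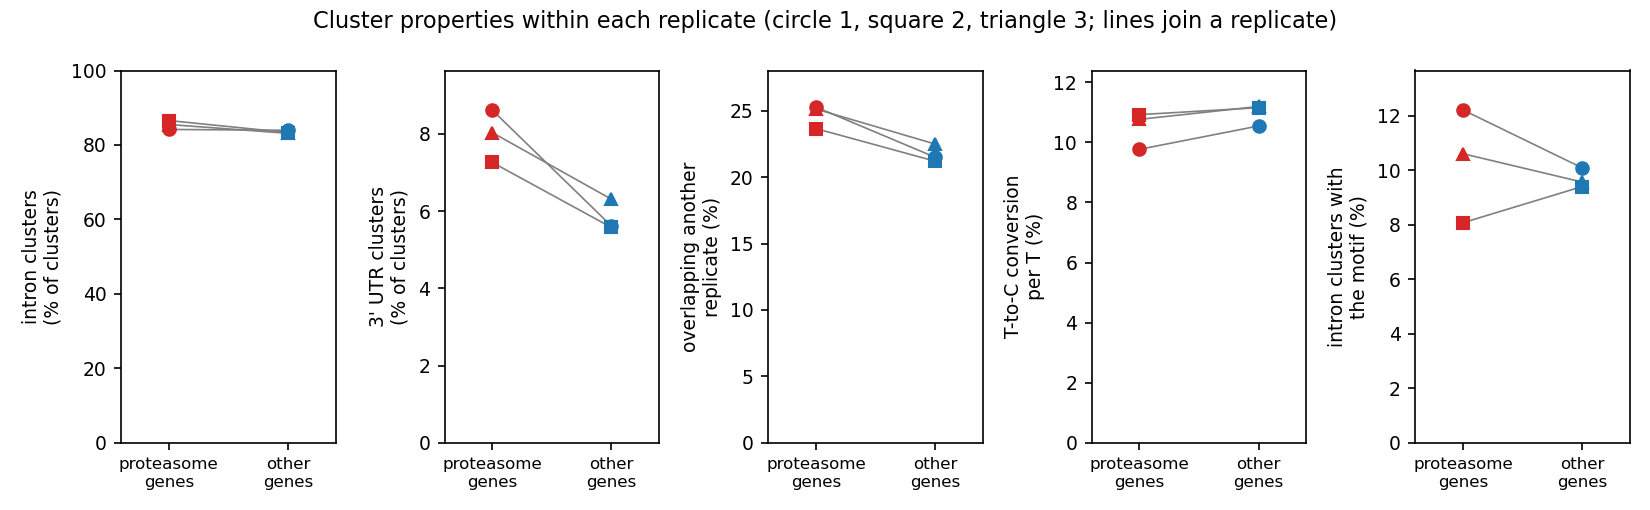
The 5 cluster properties compared between proteasome genes (red) and all other genes (blue), in percent, with a line joining the values of each replicate and every axis starting at 0. The 3′ UTR and recurrence panels fall from left to right in 3 of 3 replicates, conversion rises in 3 of 3, and the motif panel goes both ways.

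Some of the members' clusters lay in sequence with many copies. A 20-mer with at least 100 copies in the main chromosomes of hg38 occurred in 9.44%, 10.8% and 6.22% of their clusters, which held 11.8%, 9.07% and 6.12% of their reads. Of these 98 clusters, 95 were of the intron class and 3 of the 3′ UTR class. PSME4 had 12 of its 61 clusters there, PSMD13 and PSMB2 had 9 each of 46 and 78, PSMB1 7 of 53 and PSMB7 3 of 107. In 48.3%, 46.0% and 54.4% of the clusters every 20-mer was single-copy. The same count over other genes was not made.

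Genes that work with the proteasome were also listed, with 27 taken from its known partners: receptors, regulators of subunit transcription, ubiquitin ligases at the complex and ubiquitin genes. Of these, 22 had clusters in all 3 replicates, 3 in 2 replicates (PAAF1, UBQLN2 and RPS27A) and 2 in none, beside 40.7% of protein-coding genes in all 3 replicates. UBE3A had 697, 492 and 684 rpm and UBE3C, a ligase that acts at the proteasome, 432, 525 and 489 rpm, both above every subunit gene in their means. Both are long genes, and per kb they had 5.93 and 3.69 rpm, below PSMB7 at 6.22. ECPAS, an adaptor of the 26S complex, had 372, 349 and 424 rpm, close to PSMB7.

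Among 19S components and cofactors outside the name pattern, SEM1 had 270.0 ± 29.6 rpm, the receptor ADRM1 44.8 ± 22.2, and the deubiquitinases USP14 and UCHL5 274 ± 40.1 and 152 ± 48.2. TXNL1 had 199 ± 87.3 rpm, ZFAND5 101 ± 1.20 and FBXO7 45.6 ± 9.92. POMP, the maturation factor of the core, had 91.8, 11.3 and 157 rpm, with replicate 2 lowest. The transcription factors of the subunit genes, NFE2L1 and NFE2L2, had 204 ± 55.1 and 240.4 ± 33.0 rpm (SD, n = 3 throughout). NFE2L1, which restores subunit synthesis when the proteasome is impaired, had a mean of 15.4 rpm per kb. That lay within the spread of PSMB1, the densest subunit gene, at 14.0 ± 5.02. Its processing factors DDI2 and NGLY1 had 124 ± 54.4 and 49.4 ± 5.98, and VCP, the unfolding ATPase, 117 ± 42.4 rpm.

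Of the shuttle factors that carry ubiquitin-tagged proteins, RAD23B had 275 ± 69.7 rpm, UBQLN1 129 ± 34.3 and UBQLN4 21.2 ± 12.2 (SD, n = 3). AKIRIN2, which brings proteasomes into the nucleus, had 50.7 ± 6.37 rpm.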

How the data were processed

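MATR3 PAR-CLIP was analysed in 3 biological replicates of wild-type HEK293 cells, with 1 deposited cluster table for each. A cluster has, per the file headers, whole counts of reads, distinct reads, conversion positions, conversion events and non-conversion events, and the authors' fraction of reads with T-to-C, from 0 to 1. The deposited counts are not normalised. The build is hg38, per the submitters' processing notes, and the aligner, cluster caller and annotation release are not given in the sources used here. Clusters were called per replicate. The tables give no molecular identifiers, so counts can include copies of one molecule, and full library depth is unknown here.

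Gene names were matched to GENCODE v44 directly (11472 of 13557) or through older symbols in a RefSeq table (671), and gene lengths are full v44 spans. Levels are rpm (reads for every 1000000 in gene-annotated clusters), from 1448303, 1328093 and 1358924 such reads in replicates 1, 2 and 3. Members were compared with all other genes within each replicate, by exact two-sided sign-flip permutation tests over 3 differences. The smallest possible p is 0.25, so none of the 5 tests could reach 0.05 before or after adjustment. It is reached whenever the 3 differences share a sign, whatever their spread, and the p-values refer to these samples only. Copies in hg38 were counted for 20-mers, a count added after the sequences were seen.

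Named in full were the 12 members with the largest mean rpm and the 6 densest per kb among those in all 3 replicates, and members with a site in all 3. Other members are named by role, and the 27 partner genes by a list. Some partner genes and site sequences are not reported here. The members and lists were chosen with earlier results of these data known. Alternatives were stricter cluster sets, distinct reads, other weights, overlaps, motif measures and comparison sets, PSMC3IP left out, and each replicate left out. Other genes without mitochondrial clusters, and members without PSMG4, were added after seeing the data. The scripts (Python 3.11.15, numpy 2.4.6, pandas 2.3.3, scipy 1.17.1) were tested on simulated data.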

Additional observations from a re-analysis of the deposited data

Results flagged for a closer look

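Antisense and opposite-strand signals were left out of the members by the name rule or by annotation, and the 2 with the most reads are given here. PSMA3-AS1, an antisense RNA at the PSMA3 locus, had 16, 16 and 18 clusters with 265, 274 and 298 reads, a level of 203 ± 18.4 rpm (SD, n = 3). That was above PSMA3 itself, at 116, 62.5 and 124 rpm, in each replicate. Opposite PSME3, clusters to which the tables give no gene held 104, 186 and 219 reads in 9, 10 and 11 clusters, a mean of 170 ± 59.2 reads (SD, n = 3). All 30 lay inside BECN1, a neighbouring gene on that strand in GENCODE v44, which the tables name for 11 other clusters. Both passed the limit of 3 reads, which any listed cluster exceeds, so passing it does not set them apart. No member value in a group of 3 replicates was tested for an outlying sample.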

How the results depend on the processing

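Of 64 values recomputed under alternatives, 58 of them planned and 6 added after seeing the data, 59 were counted as unchanged. A difference was so counted if its mean kept its sign, whatever its size. The gene count had to stay within a set factor, and the level within the SD of its replicates. The recurrence difference thus counted as unchanged at 0.980 percentage points with 50% overlap, against 2.95 in the main setting. The members' level rose from 3956 to 4280 rpm with at least 3 distinct reads per cluster and to 4379 with at least 10 reads. The intron difference turned to -2.02 percentage points against other protein-coding genes. The ATCTT difference turned to -0.0463 per 1000 nt of intron cluster. Leaving out each replicate in turn gave 35 to 37 genes in all remaining replicates, 3824 to 4057 rpm, and differences of 1.29 to 2.80 (intron), 1.70 to 2.36 (3′ UTR), 1.998 to 2.74 (recurrence), -0.603 to -0.330 (conversion) and -0.143 to 1.58 percentage points (ATCTT), the lowest without replicate 1. With 2 replicates the smallest exact p is 0.5. The cause of these changes was not tested. No paired comparison between sample groups was possible because all samples belong to the same group. The comparisons of members with other genes were paired within each replicate. Recurrence and presence are limited by depth: a site below 4 reads in a library was not listed there.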

Other observations

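Opposite PSME1, which itself had no cluster, 10 clusters without a gene name were listed, with 58, 61 and 13 reads in the 3 replicates. Opposite PSMB10, also without a cluster of its own, 6 such clusters held 29, 63 and 7 reads. No cluster of either group lay inside a GENCODE v44 gene on that strand. Genes nearby on that strand were not searched for, and PSME2 lies on the same strand close to the group opposite PSME1. Whether these reads come from transcripts of the opposite strand was not tested.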
